A study of Arabidopsis thaliana with 4 samples.

Results

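Seedlings of the gl1 mutant of Arabidopsis thaliana were set against wild-type seedlings, which uses 2 of the 4 array profiles in the series, 1 of gl1 and 1 of wild type. GL1 (GLABRA1) is a MYB transcription factor that starts trichome formation in the leaf epidermis. It acts in a complex with the WD40 protein TTG1 and the bHLH proteins GL3 and EGL3, and plants that lack it form few or no leaf hairs. Trichomes are single large epidermal cells that enlarge their nuclear genome by endoreduplication, branch and thicken their walls. TTG1 and the bHLH partners are also required for anthocyanin synthesis in the seedling, where other MYB factors take the place of GL1.

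Both samples are labelled as green tissue of seedlings, kept at 22 °C in days of 16 h light and 8 h dark. The wild type was 20 days old, whereas the labels give no age for gl1. No allele of gl1 is named, and neither label names an accession, so a difference of background between the 2 columns cannot be told apart from the mutation. The labels of the ttg1 and gl3 egl3 mutants, which were also profiled once each at 20 days, do name a Landsberg erecta wild type as their reference. The series gives its purpose as the search for transcripts enriched in trichomes.

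RNA was read on 1-colour oligonucleotide arrays that hold a probe set, a group of short probes, for each transcript. Values are log2 levels, so that a difference of 1 is 2-fold, and are given in the order wild type, gl1, ttg1 and gl3 egl3 where all arrays are quoted. They were brought to 1 common distribution over the 4 arrays (quantile normalization). Each genotype has 1 deposited column, called an array here, although the wild-type column may be a mean of 2. No column comes with a replicate, so no difference has a replicate check, and differences are described by size and no p-value is given. No probe set is named here for GL1, TTG1, GL3 or EGL3, and the labels could not be checked against the mutated genes.

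Of 12601 probe sets above a minimum level, 240 were at least 2-fold lower in gl1 than in wild type, which is 1.9% of those compared. At least 2-fold higher were 122, or 0.968%, and 362, or 2.87%, passed that size in either direction. With this normalization larger differences were more numerous on the lower side. At least 3-fold lower were 49 probe sets and at least 3-fold higher 10, and 20 against 4 passed 4-fold. Most probe sets lay close to equality, with a median difference of 0.01, an SD of 0.41 and 82.1% within 0.5 on the log2 scale. The direction of the split depended on the scaling. Lower probe sets made up 66.3% of those past 2-fold after quantile normalization and 13.8% in the values as deposited, where 109 were lower and 683 higher. In the deposited values the median of the differences over all probe sets was 0.32, higher in gl1, a shift that quantile normalization removes.

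**Figure D1:**
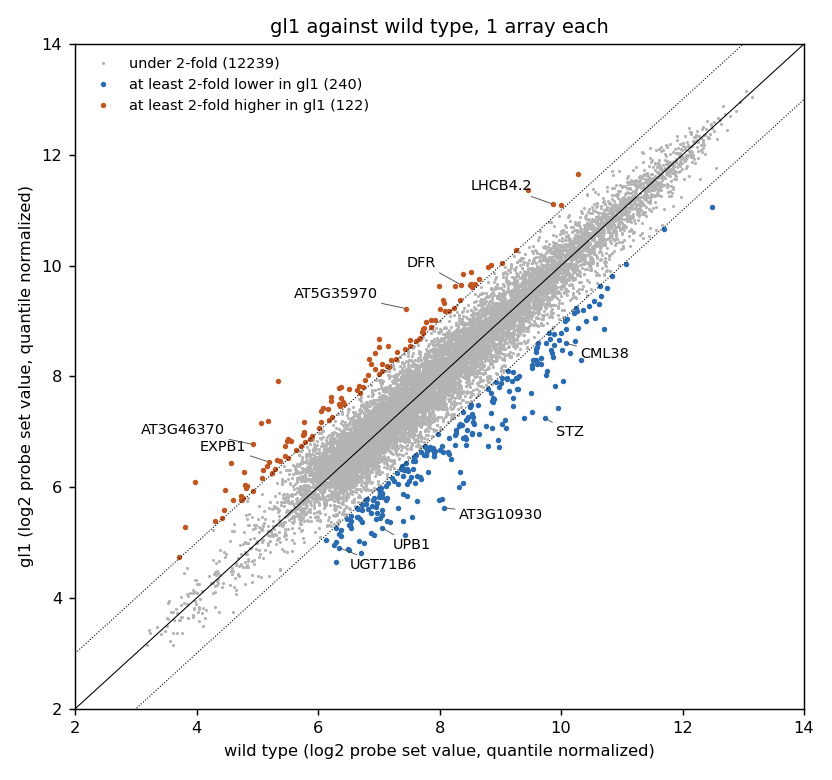
Each point is 1 of the 12601 probe sets, at its log2 value in wild type (horizontal axis) and in gl1 (vertical axis), both quantile normalized. The solid line marks equal values and the dotted lines 2-fold; the 240 probe sets below the lower line and the 122 above the upper line are coloured, and genes described in the text are labelled.

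**Figure D2:**
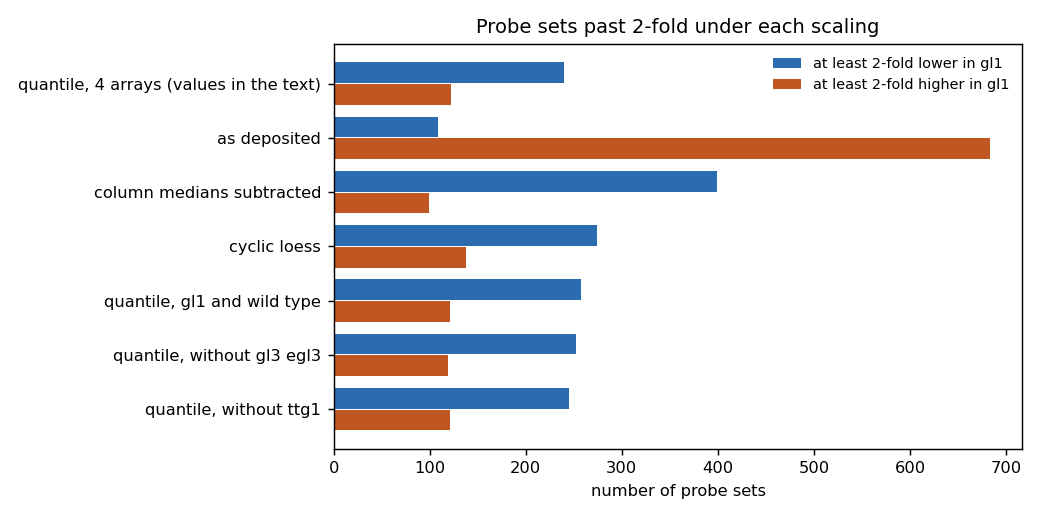
Bars give the number of probe sets at least 2-fold lower (blue) or higher (orange) in gl1 than in wild type under 7 ways of scaling the arrays. Higher probe sets outnumber lower ones in the values as deposited, 683 against 109, and lower ones outnumber higher ones under the other scalings.

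Set beside the other pairs of arrays, gl1 and wild type were the closest pair by this count. At least 2-fold apart were 362 probe sets between them, 701 between ttg1 and wild type, 1765 between gl3 egl3 and wild type, 498 between ttg1 and gl1, and 1426 between gl3 egl3 and gl1. The gl1 array stood 2-fold apart from all 3 other arrays at 21 probe sets, 10 below (0.0794%) and 11 above (0.0873%). The same count was 25 for ttg1, 112 for wild type and 576 for gl3 egl3. The level filter goes by the highest array, so an array can bring in probe sets through its own high value. The 3 differences from wild type share 1 wild-type column, so levels of the other mutants are given below side by side and not as further evidence.

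By gene, 126 of 6756 named genes were at least 2-fold lower in gl1 (1.87%) and 53 at least 2-fold higher (0.784%). Of the lower genes, 30 carry a symbol, 96 are listed by locus number alone and 3 are annotated pseudogenes. Their median levels were 7.98, 6.65, 7.03 and 7.26. The higher genes had medians of 6.22, 7.50, 6.92 and 7.12, and 11 of them carry a symbol. Another 106 lower and 67 higher probe sets past 2-fold are unnamed here, among them the lowest and the highest of the whole comparison. The lowest stood at 9.96 in wild type and 7.43 in gl1, and the highest at 5.34 and 7.91.

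STZ, a zinc finger repressor of the stress response, had the lowest difference of any named gene, and it belongs to the genes that leaves induce within minutes of touch or wounding. Its values were 9.74, 7.24, 8.27 and 8.22, a difference of -2.49 or 5.63-fold. The gl1 array was the lowest of the 4 and wild type the highest. ORA47, an AP2/ERF factor that activates jasmonate synthesis genes, was at 7.401, 5.397, 5.213 and 6.985, or 4.01-fold lower in gl1. Here gl1 and ttg1 lay together at the low end, and gl3 egl3 was near wild type.

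Of 43 genes listed for quick responses to touch and wounding, a list put together with earlier results of these data known, 7 are named here and 6 passed the minimum level. Of these 6, 5 were at least 2-fold lower in gl1 and none was higher, against 1.87% of all named genes that were lower. The list had a median difference of -1.28, and all named genes had a median of 0.01. Against the same wild-type column the list median was -0.63 in ttg1 and -1.15 in gl3 egl3. WRKY53, a factor of leaf senescence and defence, was at 7.90, 6.56, 7.09 and 6.64. WRKY22, a factor of the response to bacterial flagellin, stood at 8.47 in wild type and 7.27 in gl1. The ubiquitin ligases PUB22 and PUB23, which dampen immune signalling, differed by -1.35 and -1.22. PUB22 was at 8.89, 7.54, 8.32 and 7.85, so that gl1 was lowest. The member under 2-fold was EXO, which promotes cell expansion, at 10.22 and 9.77. In the deposited values all 6 were still lower, with a median of -0.94, but only STZ and PUB22 were 2-fold lower.

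Calcium sensors of the calmodulin-like family showed the same direction. All 6 family members above the minimum level were lower in gl1 than in wild type, 4 of them at least 2-fold, and the family median was -1.12. Over all 6756 named genes 3331 were below 0 and 1.87% were 2-fold lower. Against the same wild-type column the family median was -0.60 in ttg1 and -0.36 in gl3 egl3. CML38, a sensor induced by wounding and low oxygen, was at 10.08, 8.60, 9.69 and 8.52. CML37 stood at 6.30 in wild type and 5.01 in gl1, CML23 at 7.25 and 6.11, and CML42, a sensor that is known to affect trichome branching, at 6.79 and 5.70. The ttg1 value of CML42 was 5.74 and its gl3 egl3 value 6.44, so gl1 and ttg1 were both low. CML41 and CML30 were under 2-fold, with differences of -0.74 and -0.35. In the deposited values all 6 were still lower, with a median of -0.71, but CML38 alone was 2-fold lower.

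Glucosyltransferases of the UGT family, which attach sugar to hormones, flavonoids and foreign compounds, split into a low group and a larger group near equality. Among 25 members above the minimum level 5 were at least 2-fold lower in gl1 and none 2-fold higher, and the median was -0.23. Over all named genes 1.87% were 2-fold lower and 0.784% 2-fold higher. In the deposited values the family median was 0.12 and 3 members were 2-fold lower, so the direction of the family as a whole depended on the scaling, while the 5 low members stayed below 0 in all scalings. UGT73B4 was at 9.27, 7.77, 8.80 and 7.73, and its chromosomal neighbour UGT73B5 at 8.39, 7.37, 8.17 and 6.59. UGT76B1, which conjugates salicylate and isoleucic acid, was at 8.25, 6.76, 8.04 and 6.58. In all 3 genes gl1 and gl3 egl3 were low, and ttg1 was close to wild type. UGT73C1 followed the same order, at 6.65, 5.60, 6.67 and 4.91. UGT71B6, which glucosylates abscisic acid, differed in pattern: it stood at 4.91 in gl1 and between 6.19 and 6.34 on the other arrays. At the other end UGT88A1 was higher in gl1, at 11.29 against 10.42.

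Further low genes came from several functions. AR781 was at 8.97, 6.73, 6.48 and 7.62, and SUFE2, an activator of the cysteine desulfurase in iron-sulphur cluster assembly, at 9.03, 7.15, 6.83 and 7.14. BZIP60, a factor of the unfolded protein response, was at 10.09, 8.85, 9.32 and 9.67. SWEET2, a vacuolar sugar transporter, was at 7.86, 6.70, 6.77 and 7.31. UPB1, a bHLH factor that controls peroxidases in the root, had 7.05, 5.27, 6.58 and 8.12, so gl1 was lowest and gl3 egl3 highest.

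Genes listed by locus number alone filled most of the 20 lowest places. AT3G10930 was at 8.08, 5.63, 5.76 and 5.84, and the 3 mutants lay within a narrow band. AT4G29780 (8.39 in wild type and 6.07 in gl1) and AT2G22880 (7.99 and 5.77) had the same layout of a high wild-type value. AT1G72920 was at 9.53, 7.36, 8.19 and 8.86, and AT4G24110 at 7.55, 5.45, 7.08 and 6.64, each lowest in gl1. AT4G27652 was at 8.80, 6.74, 6.99 and 8.40, so only gl1 and ttg1 were low. AT5G39580, at 10.70, 8.85, 9.97 and 8.04, was lower still in gl3 egl3. The remaining members of these 20 differed from wild type by -1.90 (AT5G45630) to -1.68 (AT4G32020).

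**Figure D3:**
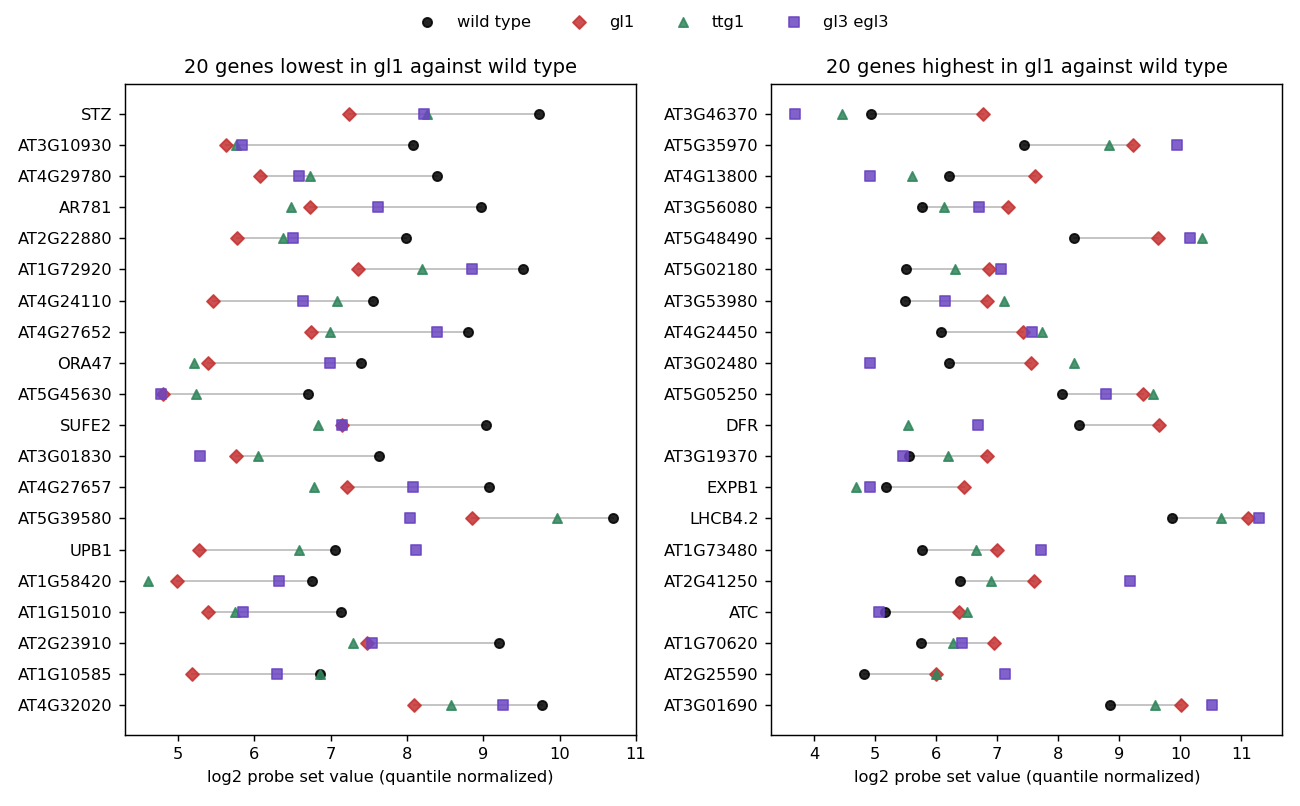
Log2 levels on the 4 arrays of the 20 genes with the most negative (left) and the 20 with the most positive (right) difference between gl1 and wild type. Each marker is 1 array, and a grey line joins wild type to gl1. DFR, EXPB1, AT3G46370 and AT4G13800 have gl1 at least 2-fold above all other arrays. Of these only DFR reached the minimum level on another array.

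Several other genes with a symbol, picked out after their values were seen, also passed 2-fold on the low side. They were WRKY6 (7.37 in wild type and 6.33 in gl1), GRX480, a glutaredoxin that binds TGA factors (7.001 and 5.818), and HEMA2, a glutamyl-tRNA reductase of tetrapyrrole synthesis (7.60 and 6.47). TET8, a tetraspanin of secreted vesicles, stood at 10.07 and 8.99. The levels of HEMA2 were 6.47 in ttg1 and 5.99 in gl3 egl3, whereas WRKY6 was at 7.49 in ttg1.

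Some of the lower genes sit close together on the chromosome. Of 120 lower genes with a position in the reference order, 16 had another lower gene within 5 protein-coding genes, forming 9 pairs. These included AT1G72900, AT1G72920 and AT1G72940, the run AT4G27652, AT4G27654 and AT4G27657, and the adjacent UGT73B5 and UGT73B4. Among the higher genes 6 of 53 did, in 3 pairs. No such share was computed over all measured genes, so whether these counts are unusual was not tested. Similar neighbouring copies can share probes, and whether shared probes carry these pairs was not tested.

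On the high side the named gene with the largest difference was AT3G46370, at 4.93, 6.77, 4.45 and 3.68, or 3.58-fold higher in gl1. The gl1 array stood above all others and was the only array above the minimum level. AT5G35970 was at 7.44, 9.23, 8.84 and 9.96, where all 3 mutants were above wild type. AT4G13800 was at 6.21, 7.62, 5.61 and 4.91, again with gl1 alone at the top and alone above the minimum level. AT4G24450, listed in the reference with the synonym ATGWD2, a glucan, water dikinase, had 6.08, 7.42, 7.74 and 7.57.

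The measured genes of late anthocyanin synthesis lay above wild type in gl1. DFR, the dihydroflavonol reductase that makes the leucoanthocyanidin precursor, was at 8.35, 9.66, 5.54 and 6.68. The gl1 array was thus 2.48-fold above wild type, and ttg1 and gl3 egl3 were below it. Of 13 late anthocyanin genes 5 are named here and 3 passed the minimum level, all 3 higher in gl1 than in wild type, 1 of them by 2-fold. Over all 6756 named genes 3423 were above 0 and 0.784% 2-fold higher. The median of the anthocyanin list was 0.62, and it was above 0 in every scaling. UGT78D2, a flavonoid 3-O-glucosyltransferase, stood at 8.14 and 8.76, and UF3GT, the anthocyanin xylosyltransferase, at 7.90 and 8.15. UGT78D1, which adds rhamnose to flavonols earlier in the pathway, differed by -0.17. The list holds too few measured members to describe the pathway.

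At 186 probe sets, DFR among them, ttg1 and gl3 egl3 were both at least 2-fold below both wild type and gl1. The difference between gl1 and wild type at these probe sets had a median of 0.03 and ran from -1.42 to 1.31, with 4 past 2-fold. At the 42 probe sets where both mutants were as far above, the median was -0.03, and none passed 2-fold. This choice of probe sets keeps gl1 and wild type on 1 side, so the medians are a description only. The same split divides arrays with a stated Landsberg erecta reference from those with no stated accession. The part of accession in it was not tested.

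The measured starch genes lay on the high side. APL4, a large subunit of the ADP-glucose pyrophosphorylase that starts starch synthesis, was at 4.74, 5.76, 6.52 and 3.91, so gl1 and ttg1 were high and gl3 egl3 low. It reached the minimum level (6.26) in ttg1 alone, so its wild-type and gl1 values both lie below that level. All 4 named starch genes above the minimum level were higher in gl1, 1 of them 2-fold, with a median of 0.74. Their medians against the same wild-type column were 0.71 in ttg1 and -0.75 in gl3 egl3. Over all 6756 named genes 3423 were above 0, 0.784% were 2-fold higher in gl1 and 1.87% 2-fold lower. The deposited values put 3 of the 4 starch genes past 2-fold. APL3 stood at 6.80 and 7.46, DPE1, a disproportionating enzyme of starch breakdown, at 9.04 and 9.86, and AT5G26570, the phosphoglucan, water dikinase PWD, at 9.76 and 10.07. SWEET13, a sucrose exporter, was at 4.45, 5.58, 5.80 and 6.64, above the minimum level in gl3 egl3 alone. The 6 measured genes with a SWEET symbol had 1 member 2-fold lower, 1 higher and a median of -0.15, or 0.14 in the deposited values. SAG29, a SWEET gene listed under another symbol, is not counted among them. It was at 4.92, 5.93, 6.92 and 6.07, or 2.01-fold higher in gl1, and reached the minimum level in ttg1 alone.

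GI (GIGANTEA), a clock component and promoter of flowering, was at 5.38, 6.47, 6.58 and 5.30. It is the only 1 of 25 listed clock genes named here, and its level changes through the day. The time of harvest is not given in the labels, and its part in the GI difference was not tested. ATC, a relative of the floral repressor TFL1, showed the same layout at 5.16, 6.37, 6.50 and 5.07. In both genes gl1 and ttg1 lay together above wild type and gl3 egl3.

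LHCB4.2, an antenna protein of photosystem II, was at 9.87, 11.11, 10.68 and 11.30. The other 4 measured light-harvesting and Calvin cycle genes of the nucleus were between 0.01 (RCA, rubisco activase) and 0.30 (PRK, phosphoribulokinase) higher in gl1. The paralogue LHCB4.1 differed by 0.29. The median of the list was 0.29, and it turned to -0.14 when only the array medians were subtracted, where LHCB4.2 was also under 2-fold. Cold response genes had a median of 0.30, with LTI30, a dehydrin, at 7.50 and 8.30, and COR27 at 10.71 and 10.06, and none of the 5 passed 2-fold. Their median also turned below 0, to -0.11, when only the array medians were subtracted.

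EXPB1, a beta-expansin that loosens the cell wall, was at 5.19, 6.46, 4.69 and 4.92. It was 1 of 9 named genes with gl1 at least 2-fold above all 3 other arrays. The others were AT3G46370, AT4G13800, DFR, AT1G63880 (7.73, 8.79, 5.30 and 5.39, under 2-fold against wild type with cyclic loess), AT1G65370, AT2G15880, AT3G01720 and AT4G02850. Of these genes EXPB1, AT3G46370, AT4G13800, AT1G65370 and AT4G02850 reached the minimum level (6.26) in gl1 alone. The filter thus took them in through the array where they are high. At least 2-fold below all others in gl1 were AT1G10585, AT4G24110, AT5G33390, UGT71B6 and UPB1. AT1G10585 stood at 6.86, 5.18, 6.86 and 6.30. CYP71B35, a cytochrome P450, was at 6.18 in wild type and 7.21 in gl1, and the other 2 mutants lay at 7.22 and 7.42.

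Trichome genes themselves showed small differences. Of 24 listed regulators of trichome fate, 4 are named here and 2 passed the minimum level. TRY (TRIPTYCHON), the MYB inhibitor that a GL1 complex activates, was at 5.44, 4.84, 5.56 and 8.24. SIM (SIAMESE), the cyclin-dependent kinase inhibitor that GL1 and GL3 target to start endoreduplication, was at 6.89, 6.33, 6.54 and 6.98. Both were lowest in gl1, by 0.60 and 0.56 against wild type, and neither passed 2-fold. TRY was highest in gl3 egl3 and reached the minimum level (6.26) there alone. Its difference between gl1 and wild type is thus between values below that level. In the deposited values the pair had a median difference of -0.17.

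The list of 25 genes that shape growing trichomes has 6 measured members, and none passed 2-fold. PIR121 and SPK1, of the pathway that promotes actin nucleation, were 0.51 and 0.48 higher in gl1, and AN (ANGUSTIFOLIA), a branching gene, 0.36 higher. BRK1, BLT and AT5G06700 (TRICHOME BIREFRINGENCE, a wall polymer acetylation gene) differed by -0.05, -0.08 and -0.18. The last of these 3 was at 8.45, 8.27, 8.46 and 7.87, and was 0.12 above wild type in the deposited values. The TBL family related to it had 10 measured members, differences from -0.67 (TBL37) to 0.46 (TBL38) and none past 2-fold. In bulk seedling tissue, fewer cells of a type and less RNA per cell cannot be told apart. Trichome cells are a small part of the tissue, and whether an array of such tissue could show their loss was not tested.

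Markers of other tissues were looked up by whole lists, but few were measured. None is named for the epidermis or the flower, and the 1 named for the shoot meristem was below the minimum level. Measured were RCA for mesophyll (12.19 and 12.21), SWEET11 for the vasculature (10.06 and 10.18) and PYK10, 1 of 3 named, for the root (11.18 and 11.34). Of 16 stomatal lineage genes 4 are named and 2 were measured. FMA (FAMA) was at 7.46 and 6.87, and STOMAGEN at 10.70 and 10.93. RCA was between 12.19 and 12.30 on all 4 arrays, and PYK10, a beta-glucosidase of root and hypocotyl cells, between 10.91 and 11.34. None of these 5 differed by 2-fold under any scaling tried, and RCA, SWEET11, PYK10 and STOMAGEN lay below wild type when only the array medians were subtracted. These markers' part in the differences above was not tested.

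**Figure D4:**
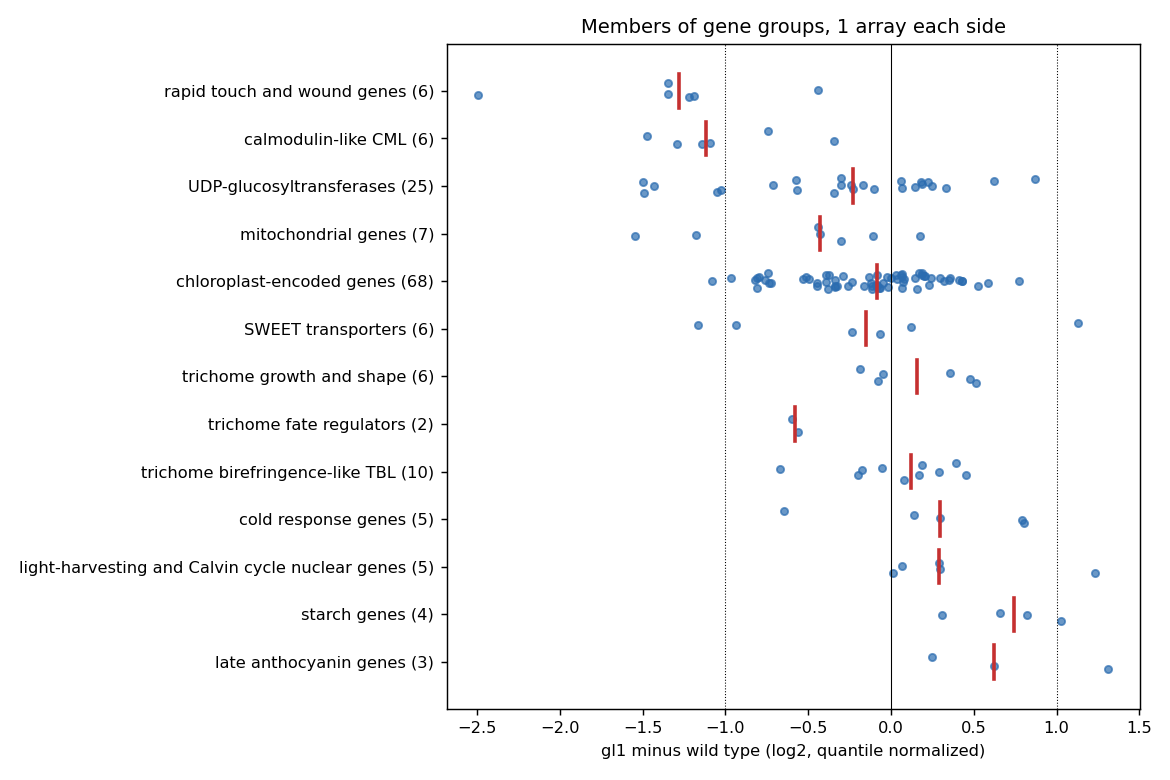
Each point is 1 gene above the minimum level, at its log2 difference between gl1 and wild type, grouped by gene list with the number of genes in brackets; red bars are medians and dotted lines mark 2-fold. Touch and wound genes and calmodulin-like genes lie below 0 throughout, and chloroplast-encoded genes spread around 0 with a median of -0.08, or 0.04 in the values as deposited.

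Genes of the mitochondrial genome included 2 low members among 7 measured, beside 1.87% of all named genes that were 2-fold lower. nad4L, a subunit of respiratory complex I, was at 8.15, 6.61, 6.95 and 7.47, and nad5, another, at 8.98, 7.80, 8.20 and 8.71. The 7 measured mitochondrial genes had a median of -0.43, of which 6 were below 0, and nad4 was at 9.56 in wild type and 9.73 in gl1. In the deposited values the median of these 7 genes was 0.01, with 3 below 0 and 4 above, and 1 in place of 2 was 2-fold lower. Of 68 measured chloroplast-encoded genes 1, psbJ of photosystem II, was 2-fold lower (9.61 in wild type and 8.52 in gl1). Over all named genes that share was 1.87%. The other chloroplast-encoded genes ran from -0.97 (psaC) to 0.77 (accD), and of all 68 genes 40 were below 0 and 28 above. The median of -0.08 became 0.04 in the deposited values, and when only the array medians were subtracted 9 of the 68 were 2-fold lower and the median was -0.43. Transcripts of both organelles are mostly without long poly(A) tails, so how well the labelling captured them cannot be read from these columns.

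Other families had few or no members past 2-fold. Glutathione transferases (9 measured), beta-glucosidases (8), serine carboxypeptidase-like genes (13), ubiquitin-conjugating enzymes (11) and aldehyde dehydrogenases (8) had no member past 2-fold. Their medians were 0.03, 0.21, 0.27, -0.10 and 0.01. Only the beta-glucosidases and carboxypeptidases kept the sign of their median under all scalings tried. Among xyloglucan endotransglucosylases XTH18 was the lowest, at 8.18 in wild type and 7.23 in gl1. The defensin PDF1.2, a jasmonate and ethylene response gene, was at 7.05 in wild type, 7.62 in gl1 and 9.84 in gl3 egl3. AOP3 of glucosinolate side chain synthesis, which is known to differ between accessions, was at 4.27, 4.69, 8.15 and 7.75. Wild type and gl1 were thus both below the minimum level for AOP3, and the 2 mutants whose labels name Landsberg erecta were both high.

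A mutation crossed in from another background can bring flanking differences with it, so genes around GL1 on chromosome 3 were described by their order. The nearest 100 measured genes on either side had median differences of -0.05 and 0.06 and SDs of 0.37 and 0.42, with 1 lower and 1 higher gene past 2-fold in each. Windows of 100 genes further away held 0 to 3 of either. In the nearest windows, 1 on each side of GL1, AT3G46370 had the highest difference (1.84) and AT3G46280 the lowest (-1.30). By chromosome, 1.26% (chromosome 5) to 2.35% (chromosome 1) of measured genes were 2-fold lower.

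Among the probe sets used, differences past 2-fold were most frequent in the group of lowest mean level. The level filter goes by the highest array, so a mean below the minimum enters only where some array stands above it. The order of the groups is thus partly set by the filter. Without a level filter 257 of 22746 probe sets were 2-fold lower and 148 higher. Split into 5 groups of equal size by mean level, the 240 lower probe sets numbered 74, 53, 48, 41 and 24 from the weakest to the strongest, and the 122 higher ones 42, 23, 21, 24 and 12. The SD of the difference was 0.46 in the weakest group and 0.34 in the strongest. Of the genes with more than 1 measured probe set, 42 in all, the median gap between probe sets was 0.27 and the 90th percentile 0.86. One of them, AT2G37480, passed 2-fold at 1 probe set (-1.03) and not at another (-0.12).

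Control probe sets, in the deposited values, differed between the columns. The hybridization spike-ins bioB and bioC were higher in gl1 by a median of 0.68 (10 probe sets, 0.53 to 1.02), and bioD and cre by 0.08 (8 probe sets). The 27 other bacterial controls were 0.20 higher. The 3′ to 5′ difference, a measure of RNA integrity, was 2.46 in wild type and 2.50 in gl1 for actin, 1.005 and 1.08 for GAPDH, and 2.135 and 1.85 for ubiquitin. In an older set of these probe sets it was 1.455 and 1.05 for GAPDH. A control for 5S ribosomal RNA stood at 6.30, 7.97, 8.30 and 9.57 on the 4 arrays, whereas that for 25S ribosomal RNA was at 7.52 and 7.57 in wild type and gl1. Every wild-type value was a multiple of 0.005, so the column may be 1 array or a mean of 2. The part of these controls in the differences was not tested.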

How the data were processed

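The data are 1 deposited column of log2 values for each of 4 genotypes (wild type, gl1, ttg1 and gl3 egl3), made by the authors from 25 ng of total RNA per sample by isothermal amplification and biotin labelling, per the labels' protocols. RMA is named per the submitters' processing notes, while no source used here gives its version or settings. Scale between columns is not stated either: the deposited log2 medians were 5.93 for wild type, and 6.40, 6.33 and 6.38 for the mutants in the order above. The series text and the sample title name the second gene of the double mutant differently, and the title was followed.

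From 22810 probe sets 64 controls were removed. The 4 columns were quantile normalized with limma 3.58.1 in R 4.3.3, and 12601 of 22746 probe sets whose highest value reached the median of all values (6.26) were used. The platform annotation gave the names, brought up to date with the RefSeq annotation of assembly TAIR10.1: 13513 probe sets name 1 gene (13436 matched), 503 several and 8730 none here. Where several probe sets name a gene, that of the highest mean stands for it. With 1 column per genotype, a 2-fold size rule replaces a test, and precision is limited by the number of arrays. The procedure was run on simulated columns that differed only in median, in noise and in known shifts of more than 2-fold in gl1. The simulation left out the different spreads of the real columns, so it does not check the scaling between them.

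Named genes are the 20 lowest and 20 highest, and those in which gl1 stands 2-fold from all 3 other arrays. Members of 25 lists and 20 families past 2-fold, or at a list's ends, are also named. The mutated genes were planned too, but no probe set is named for them here. Members and lists were chosen with earlier results of these data known, and 5 lists have no member named here. Alternatives were other scalings, other arrays in the normalization, and other level filters. Removing probe sets that can match several transcripts was added after the data were seen. No promoter sequence was used here, so the planned search for promoter motifs was not run.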

Additional observations from a re-analysis of the deposited data

Results flagged for a closer look

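The 3 genes DFR, AT1G63880 and AT4G02850 moved one way in gl1 and the other way in both other mutants, each by at least 2-fold against the same wild-type column. DFR was 1.31 higher in gl1 (log2), and its differences from wild type were -2.81 in ttg1 and -1.67 in gl3 egl3; its values were 9.66 in gl1, 8.35 in wild type, 5.54 in ttg1 and 6.68 in gl3 egl3. AT1G63880 was 1.06 higher in gl1, at 8.79 against 7.73, and stood at 5.30 in ttg1 and 5.39 in gl3 egl3. Its difference was 0.93 with cyclic loess and 0.91 when only the array medians were subtracted, both under 2-fold. AT4G02850 was 1.03 higher in gl1, at 6.75 against 5.72, and stood at 4.32 and 4.70. It reached the minimum level in gl1 alone. With 1 column per genotype these differences between arrays were not tested. A Landsberg erecta reference is given for ttg1 and gl3 egl3 but no accession for gl1 or wild type. Whether accession has a part in the low values shared by ttg1 and gl3 egl3 was not tested.

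A signal outside the main measurement was the control probe set for 5S ribosomal RNA. After the array medians were subtracted it was 1.19 higher in gl1 than in wild type.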

How the results depend on the processing

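The split between lower and higher probe sets depended on the scaling. The deposited values gave 109 lower and 683 higher probe sets in place of 240 and 122, and subtracting the array medians gave 399 lower and 99 higher; the cause was not tested. Cyclic loess, the other quantile normalizations, other level filters and removing probe sets that can match several transcripts (an alternative chosen after seeing the data) gave 202 to 274 lower and 86 to 148 higher. Of the 240 lower probe sets, all were also below wild type in the deposited values, 112 of them by 2-fold; of the 122 higher, 89 stayed past 2-fold when only the array medians were subtracted. Of the 179 named genes past 2-fold (126 lower, 53 higher), 107 stayed past it in the deposited values (54 and 53) and 163 when only the array medians were subtracted (126 and 37). The medians of 39 lists and families, over the same members, moved by 0.33 (median) in the deposited values, and 22 of the 39 changed sign under at least 1 scaling. No paired analysis was possible because each genotype has 1 deposited column. The planned search for promoter motifs was not run. No column comes with a replicate, so 2-fold is a size and not a test. Among the probe sets used it was passed most often at the lowest mean levels, an order that the level filter partly sets.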
